A study of Mus musculus with 56 samples.

Results

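The 33 genes described here make sterols and fatty acids, control that synthesis or move the sterols, and were taken by their symbols from the 47937 genes listed in both count tables. They comprise 17 genes of cholesterol synthesis, 5 genes of the SREBP system, 8 genes of fatty acid synthesis, 2 sterol exporters and 1 sterol transporter (Stard4), and all 33 passed the low-count filter in both tables. The cells were naive CD4+ T cells of spleen and lymph nodes from C57BL/6 mice, typically 6 to 10 weeks old and of both sexes, and were isolated by negative selection. They were activated with anti-CD3, anti-CD28 and IL-2 and harvested on day 4 of polarization into TH1 (IL-12), TH2 (IL-4), TH17 (IL-6, TGF-β and IL-1) or Treg (TGF-β) cells, with blocking antibodies to cytokines of other lineages. Odc-/- and Dohh-/- here name the libraries so labelled, from Odc-ΔT mice with loxP sites around exons 9 to 11 of Odc and Dohh-ΔT mice with loxP sites around exons 2 to 4 of Dohh. In both lines Cre is driven by the CD4 promoter and so acts in T cells, CD8+ cells included, during their development. ODC makes the polyamine putrescine from ornithine, and DOHH completes hypusine, a modified lysine of the translation factor eIF5A that is built from the polyamine spermidine. Each table has WT littermate controls of its own. The Odc table holds 4 libraries per genotype and subset, except 3 Odc-/- libraries in TH2 cells, where replicate 1 was not analysed here, and the Dohh table holds 3 per genotype and subset.

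Cholesterol is made from acetyl-CoA through HMG-CoA, mevalonate, farnesyl diphosphate, squalene and lanosterol. SREBP transcription factors, made by Srebf1 and Srebf2, raise the genes of this pathway and of fatty acid synthesis. When the endoplasmic reticulum is rich in sterols, INSIG proteins hold the SREBP escort SCAP there, and when sterols run low SCAP carries SREBP to the Golgi, where it is cut and released to the nucleus. Oxysterols act through LXR to raise the exporters ABCA1 and ABCG1. T cells that are activated to divide draw on both synthesis programs for membranes.

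Promoters of members that moved in different ways are shown, from RefSeq sequences on GRCm38.p6, each running from 250 bases before the start of the transcript to 50 after it. Capitals mark an exact match to the form TCACNCCAC of a sterol regulatory element, or to an NF-Y box, CCAAT, on either strand. A window in lower case throughout holds no exact match to either, and other forms of the element were not searched. Hmgcs1 fell in 3 subsets of Odc-/- cells and rose in Dohh-/- TH17 cells, Cyp51 rose in all 4 subsets of Dohh-/- cells, Hsd17b7 fell in both Odc-/- and Dohh-/- Treg cells, and Fads2 fell in Odc-/- but rose in Dohh-/- TH17 and Treg cells.
Hmgcs1 promoter (chr13:119690101-119690400, plus strand): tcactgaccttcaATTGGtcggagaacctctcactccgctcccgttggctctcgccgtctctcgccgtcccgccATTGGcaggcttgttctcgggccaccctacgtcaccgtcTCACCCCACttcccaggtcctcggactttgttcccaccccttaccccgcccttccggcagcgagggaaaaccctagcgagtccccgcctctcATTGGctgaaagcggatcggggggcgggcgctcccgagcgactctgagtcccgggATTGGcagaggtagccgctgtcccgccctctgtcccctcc
Cyp51 promoter (chr5:4104648-4104947, minus strand): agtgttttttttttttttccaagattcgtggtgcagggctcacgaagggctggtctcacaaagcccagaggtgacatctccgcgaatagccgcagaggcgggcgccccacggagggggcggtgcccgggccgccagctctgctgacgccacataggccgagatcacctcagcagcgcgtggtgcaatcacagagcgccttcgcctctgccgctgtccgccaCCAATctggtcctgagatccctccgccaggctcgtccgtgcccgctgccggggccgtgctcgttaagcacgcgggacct
Hsd17b7 promoter (chr1:169969156-169969455, minus strand): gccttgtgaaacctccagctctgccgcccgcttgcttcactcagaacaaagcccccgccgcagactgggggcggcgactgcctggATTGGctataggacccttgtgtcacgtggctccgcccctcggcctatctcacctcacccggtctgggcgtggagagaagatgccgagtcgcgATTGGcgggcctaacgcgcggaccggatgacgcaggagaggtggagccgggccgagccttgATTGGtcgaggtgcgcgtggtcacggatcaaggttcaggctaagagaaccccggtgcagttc
Fads2 promoter (chr19:10101454-10101753, minus strand): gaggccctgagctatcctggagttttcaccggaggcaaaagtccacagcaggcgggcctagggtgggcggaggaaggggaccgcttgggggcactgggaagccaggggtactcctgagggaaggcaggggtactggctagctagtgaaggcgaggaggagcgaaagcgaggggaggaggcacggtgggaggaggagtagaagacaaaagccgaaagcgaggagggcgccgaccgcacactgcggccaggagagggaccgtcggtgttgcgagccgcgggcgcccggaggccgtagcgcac
The promoters of Abcg1, Fads1, Fdft1, Fdps, Scd1, Scd2, Sqle and Stard4 are not shown or searched. Over the members with a promoter in the table, this form of the sterol regulatory element was found in 1 of 25 members against 1.44% of all 27025 genes in the table. The NF-Y box was in 20 of 25 members against 41.1% of all 27025 genes in the table, and the Sp1 box GGGCGG in 20 of 25 members against 38.2% of all 27025 genes in the table. The E-box CACGTG, which reads alike on both strands, was in 6 of 25 members against 8.09% of all 27025 genes in the table. Matches were sought on both strands, a gene with several annotated starts was counted if any of its windows held the motif, and none of these motifs is contained in another. A match is a description of the sequence and not a binding site, and a missing match does not show that a binding site is absent.

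Total counts per library were 5905374 to 9145214 in the Odc table and 6572148 to 12576933 in the Dohh table. Gene models on the opposite strand cover 18.31% of the exon length of Fdft1 (Ctsb), 13.23% of Scap (5830462I19Rik), 12.12% of Hmgcs1 (Gm48342), 9.22% of Idi1 (Gm48574) and at most 3.76% of any other member. The strand setting of the counting is not given in the sources used here, so reads of these 4 genes may not be separate from those of their antisense partners, and their values are uncertain to that extent. Levels are given in CPM, which scale a count to the TMM-scaled size of its library, and 3 counts, the most that a count of 0 allows at the 95% level, correspond to at most 0.508 CPM. Counts of the targeted genes do not check the labels, since exons outside the deleted part are counted too, with Odc1 at 357 to 859.9 CPM in WT and 424 to 679.8 in Odc-/- libraries, and Dohh at 31.5 to 45.9 and 45.2 to 148. Summed markers of T cell identity (8 of 8 genes detected) were lower without overlap in Odc-/- than in WT libraries in TH1 (3009.5 to 3546 against 3952 to 4640.3 CPM) and TH2 cells (2099.5 to 2449 against 3448 to 3918), and overlapped in TH17 (2853 to 4001 against 3474 to 4419.9) and Treg cells (2592 to 3448 against 2693 to 4298). In the Dohh table they were lower in Dohh-/- libraries in every subset, at 1651 to 3357 against 3926 to 4721 CPM. Markers of TH1, TH2 and Treg cells (3 genes each) were highest in the subset so labelled in WT libraries, and the Treg markers Foxp3, Ikzf2 and Ikzf4 summed to 611 to 835 in WT and 500.4 to 866 CPM in Odc-/- Treg cells, and to 726 to 776 in WT but 141 to 258 in Dohh-/- Treg cells. The Treg markers were at 151 to 302 against 84.5 to 129 CPM in Odc-/- TH17 and 59.0 to 68.3 against 82.8 to 103 in Odc-/- TH2 cells. Deficient cells also differed from WT in other subset markers, with TH2 markers (Gata3, Il4, Il5) at 177 to 246 against 346 to 374 CPM in Odc-/- and 415 to 563 against 307 to 323 in Dohh-/- TH2 cells, and at 12.1 to 15.3 against 47.0 to 60.3 in Dohh-/- Treg cells. TH1 markers (Tbx21, Ifng, Cxcr3) were at 157 to 4511 CPM in Dohh-/- against 10.6 to 372 in WT libraries over the 4 subsets, and at 111 to 289 against 18.03 to 51.0 in Odc-/- cells other than TH1. In Odc-/- TH1 cells they overlapped, at 1246 to 3144 against 654 to 2141 CPM. Summed markers of myeloid cells (10 genes) were 22.8 to 44.9 CPM in WT controls for Dohh and 15.2 to 57.2 in those for Odc. They reached 32.4 to 288 in Dohh-/- TH1, 49.4 to 806 in Dohh-/- TH2, 609.6 to 11802 in Dohh-/- TH17 and 422 to 5007 in Dohh-/- Treg libraries, with Itgam at or under 3 counts in all 4 subsets, C1qa also in TH1, and the others above 3, and 64.2 to 634 and 175 to 889 in Odc-/- TH17 and Treg libraries. Replicates 2 and 3 of Dohh-/- TH17 and Treg cells, all above 2000 CPM, stand apart. Changes between deficient and WT cells in these subsets are also given without them where that ends or makes a pass of the test, or moves a result that passed by over 1.5 times. Differences between the effects of the deletions are given with all libraries. B cell markers (6 genes) summed to 102 to 524 CPM in Odc-/- TH1 and TH2 libraries against 7.54 to 97.8 in WT, to 22.1 to 177 against 3.51 to 5.93 in Treg and 12.1 to 27.2 against 4.92 to 8.0 in TH17 cells, and to at most 58.7 in Dohh-/- libraries. Basophil and mast cell markers (8 genes) summed to 14.04 to 311 in Odc-/- and 64.6 to 1164 in Dohh-/- libraries against at most 18.4 in WT. Markers of CD8 T and NK cells (5 genes) summed to 241 to 365 against 35.6 to 58.8 CPM in WT for Odc-/- Treg cells and 166 to 231 against 132 to 161 for Odc-/- TH17 cells. In Dohh-/- cells these were 163 to 490.1 against 37.7 to 50.2 in TH1, 48.5 to 84.3 against 23.1 to 27.0 in TH2, 426 to 552 against 90.7 to 122 in TH17 and 480.2 to 564 against 40.3 to 57.5 in Treg cells, and erythroid markers (6 genes) at most 56.4 CPM in any library. Proliferation markers (8 genes) summed to 1487 to 3060.0 CPM in Dohh-/- against 1118 to 1454 in their WT controls, to 2418 to 3031 in Odc-/- against 3155 to 3884 CPM in WT Treg libraries, and had higher means in Odc-/- than in WT cells in TH1 (2939 ± 473 against 2234 ± 96.0), TH2 (3012 ± 326 against 2429 ± 204) and TH17 cells (3371 ± 189.8 against 2946 ± 423, mean ± SD). The part of these cells, of the subset markers and of proliferation in the results was not tested, and in bulk libraries fewer cells of a type and less RNA per cell cannot be told apart.

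In WT cells of the Odc table the summed level of cholesterol synthesis genes was highest in Treg cells, and in those of the Dohh table it was lowest in TH17 cells. The 17 cholesterol synthesis genes summed to 2431 ± 249.6 CPM (SD, n = 4) in WT Treg cells of the Odc table, against 1470.3 ± 86.3 in TH1, 1366 ± 35.6 in TH2 and 1265 ± 128 in TH17 cells. In the TH17 cells of the Dohh table they summed to 924 ± 23.9 CPM (SD, n = 3) against 1708 ± 88.9 in TH1, 1476 ± 48.4 in TH2 and 1719.6 ± 137 in Treg cells, of which the TH1 and Treg libraries overlapped. Subsets of WT cells differed by more than 2-fold between the highest and the lowest, at an adjusted p-value below 0.05, for 11 members of the Odc table and 14 of the Dohh table, beside 33.2% and 26.4% of all genes tested, so the share in the Odc table was near the background. Scd1 had the widest range, with a log2 difference between Treg and the lowest subset of 2.45 (adjusted p = 3.14e-08) for the Odc table and 2.23 (adjusted p = 2.09e-06) for the Dohh table. Per kilobase of exon, Scd2 stood highest of the members, at a mean of 420.1 CPM per kb over the 4 WT subsets of the Odc table and 249.0 over those of the Dohh table, and Acacb lowest, at 0.196 and 0.336.

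**Figure D1:**
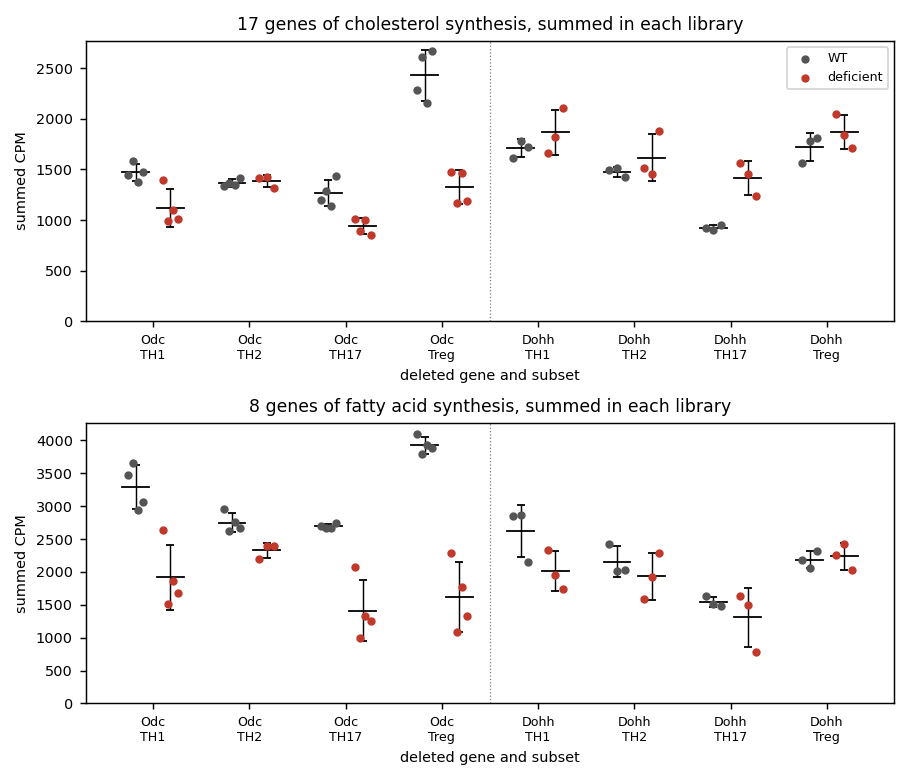
Summed CPM of the 17 cholesterol synthesis genes (upper) and the 8 fatty acid synthesis genes (lower) in each library, by table and subset, with WT in grey and deficient cells in red; lines and bars are the mean and SD. WT Treg libraries of the Odc table lie at 2157 to 2670.3 CPM in the upper panel, above the Odc-/- Treg libraries at 1173 to 1479, while Dohh-/- TH17 libraries lie above their WT at 1233 to 1565 against 901 to 949.

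Most of these genes were lower in Odc-/- than in WT Treg cells, and fewest were lower in TH2 cells. In Odc-/- Treg cells 26 of 33 members were lower than in WT at an adjusted p-value below 0.05 (edgeR quasi-likelihood test, Benjamini-Hochberg over all genes) and 3 were higher, beside 26.9% and 32.9% of all genes. The median log2 fold change of the members was -0.87 against 0.07 over all genes. All but Ebp of the 17 cholesterol synthesis genes fell. In TH17 cells 20 members fell and 2 rose, beside 22.2% and 25.6% of all genes, and in TH1 cells 17 fell and 5 rose, beside 27.7% and 29.1%. In TH2 cells 9 fell and 6 rose, beside 29.3% and 29.9%, with a median of -0.01, a share of falls near the background, and without Odc-/- TH2 replicate 2 only 5 fell. A gene is called where the change was also more than 2-fold, which held for 12 members in Treg, 6 in TH17, 3 in TH2 and 2 in TH1 cells, beside 24.0%, 15.6%, 25.1% and 21.4% of all genes, so the count stood above the background in Treg cells, near it in TH17 cells and below it in TH1 and TH2 cells. Without Odc-/- TH17 replicate 2, 3 members were called in TH17 cells, without Odc-/- or WT TH1 replicate 2, 1 in TH1 cells, and without Odc-/- TH2 replicate 3, 5 in TH2 cells.

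In Dohh-/- cells the members' shares of rises and falls were near or below those of all genes, and no subset showed a general fall. In Dohh-/- TH17 cells 10 members rose and 3 fell, beside 27.0% and 24.9% of all genes, and the 17 cholesterol synthesis genes summed to 1417 ± 169 CPM against 924 ± 23.9 in WT (SD, n = 3). Of these 17 genes 6 rose, 1 fell and 10 did not pass the test. The counts over all members moved with single libraries, with 5 higher and 6 lower without Dohh-/- replicate 1, 14 higher and 1 lower without Dohh-/- replicate 3, and 6 higher without WT replicate 2. In Dohh-/- Treg cells 6 rose and 8 fell, beside 28.4% and 25.0%. In TH2 cells 7 rose and 5 fell, beside 23.8% and 21.5%, and in TH1 cells 4 rose and 4 fell, beside 25.9% and 24.1%. Without Dohh-/- replicate 3, 3 rose in TH2 and 8 in TH1 cells, without WT TH2 replicate 1, 3 fell in TH2 cells, and without Dohh-/- TH1 replicate 2, 7 fell in TH1 cells. Called were 2 members in TH1, 3 in TH2, 3 in TH17 and 5 in Treg cells, fewer than the background of 29.1%, 25.9%, 31.4% and 32.7% of all genes. Without Dohh-/- replicate 3, 4 were called in TH1 cells, and without Dohh-/- replicate 2 or 3, 5 in TH17 cells. With the 4 libraries rich in myeloid markers left out, which leaves 1 Dohh-/- library in each of these subsets, 6 were called in TH17 and 3 in Treg cells, and 3 rose and 2 fell in Treg cells.

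**Figure D2:**
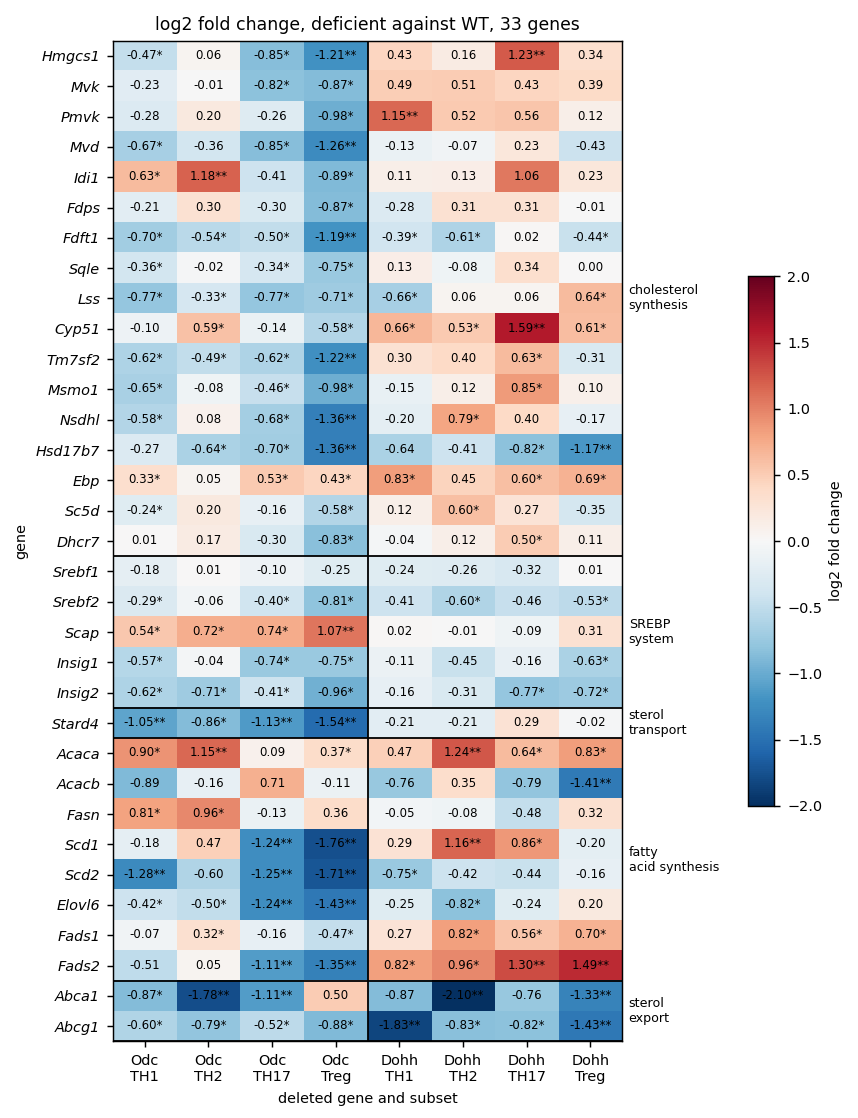
Log2 fold change of the deficient against the WT libraries for the 33 genes (rows, grouped by role) in the 8 comparisons (columns), on a color scale from -2 to 2. A single star marks an adjusted p-value below 0.05 and a double star a change that is also more than 2-fold; the Odc Treg column is lower at an adjusted p-value below 0.05 for 26 genes, and Fads2 is higher in all 4 Dohh columns.

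Hmgcs1, the synthase that makes HMG-CoA, had the highest level in Treg cells of the Odc table. In WT cells of that table it was at 224, 236, 185 and 199 CPM in TH1, 180.0, 177, 173 and 177 in TH2, 186, 209, 182 and 235 in TH17, and 449.6, 556, 394 and 563 in Treg cells. In Odc-/- cells it was at 196, 135, 144 and 134 CPM in TH1, 182, 188 and 183 in TH2, 133, 100.2, 113 and 104 in TH17, and 222, 207, 229 and 193 in Treg cells. The Odc-/- libraries lay below all WT libraries in TH17 and Treg cells, and in TH2 cells just above all WT libraries. It fell 2.31-fold in Treg cells (log2 fold change -1.21 ± 0.12 SE, adjusted p = 9.11e-09), and the log2 fold change was -0.85 ± 0.12 (adjusted p = 8.22e-06) in TH17, -0.47 ± 0.12 (adjusted p = 0.00192) in TH1 and 0.06 ± 0.13 (adjusted p = 0.697) in TH2 cells. WT cells of the Dohh table had 221, 246 and 278 CPM in TH1, 193, 206 and 221 in TH2, 92.8, 92.1 and 83.4 in TH17, and 216, 196 and 255 in Treg cells. Dohh-/- cells had 207, 210.4 and 585 CPM in TH1, 216, 187 and 289.7 in TH2, 252, 229 and 148 in TH17, and 308, 262 and 270.5 in Treg cells. All Dohh-/- TH17 and Treg libraries were above their WT libraries, and in TH1 cells a single Dohh-/- library stood far above the others. The rise in TH17 cells was 2.34-fold (log2 fold change 1.23 ± 0.29 SE, adjusted p = 0.00138) and held without the myeloid-rich libraries at 1.5 (adjusted p = 0.00724). No other subset of Dohh-/- cells passed the test, at adjusted p from 0.214 to 0.667.

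Idi1, the isomerase of the isoprene units that follow mevalonate, moved in opposite directions between subsets of Odc-/- cells. Its WT levels in the Odc table were 15.5, 20.9, 11.5 and 17.5 CPM in TH1, 16.9, 11.7, 12.56 and 21.7 in TH2, 27.5, 28.6, 22.2 and 38.1 in TH17, and 50.6, 62.4, 42.7 and 66.4 in Treg cells. Its Odc-/- levels were 21.1, 26.6, 23.6 and 29.7 CPM in TH1, 40.8, 29.2 and 36.7 in TH2, 25.4, 22.2, 16.5 and 23.4 in TH17, and 26.6, 38.8, 24.5 and 29.8 in Treg cells. The Odc-/- libraries were above WT in TH1 and TH2 cells and below WT in Treg cells, with no overlap in these 3 subsets. The rise in TH2 cells was 2.26-fold (log2 fold change 1.18 ± 0.22 SE, adjusted p = 6.29e-05) and the fall in Treg cells 1.85-fold (log2 fold change -0.89 ± 0.20 SE, adjusted p = 0.000358). The change in TH1 cells, 0.63 ± 0.21 (adjusted p = 0.0121), did not pass the test without WT TH1 replicate 3. In the Dohh table the WT levels were 20.0, 16.5 and 19.1 CPM in TH1, 10.7, 13.9 and 15.6 in TH2, 6.54, 8.0 and 9.36 in TH17, and 20.2, 23.8 and 20.5 in Treg cells. The Dohh-/- levels were 21.3, 4.73 and 33.4 CPM in TH1, 9.34, 12.2 and 22.3 in TH2, 22.0, 20.3 and 6.80 in TH17, and 22.5, 19.9 and 33.3 in Treg cells. Groups overlapped in every subset, the Dohh-/- libraries spread more widely than WT in each, and no comparison passed the test, with 1.06 ± 0.47 (adjusted p = 0.0642) in TH17 cells, which passed it under DESeq2, with a replicate block or without Dohh-/- TH17 replicate 3.

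Cyp51, which demethylates lanosterol, was the sterol gene that rose in every subset of Dohh-/- cells and fell only in Treg cells among Odc-/- cells. WT cells of the Dohh table had 170.1, 193 and 212 CPM in TH1, 152, 168 and 159 in TH2, 87.9, 80.7 and 84.1 in TH17, and 183, 196 and 225 in Treg cells. Dohh-/- cells had 260.4, 311 and 337 CPM in TH1, 202, 199 and 288 in TH2, 265, 242 and 254 in TH17, and 324, 285 and 310.1 in Treg cells. No Dohh-/- library overlapped WT in any subset. In TH17 cells the rise was 3.01-fold (log2 fold change 1.59 ± 0.15 SE, adjusted p = 7.24e-08), and it was 1.66 (adjusted p = 2.55e-05) without the myeloid-rich libraries. The rises in TH1, TH2 and Treg cells were 0.66 ± 0.15 (adjusted p = 0.000968), 0.53 ± 0.15 (adjusted p = 0.00665) and 0.61 ± 0.15 (adjusted p = 0.0017), and the TH2 value was 0.33 and no longer passed without Dohh-/- TH2 replicate 3. Cyp51 in WT cells of the Odc table was at 184, 209.8, 156 and 202 CPM in TH1, 168, 166, 160.4 and 195 in TH2, 164, 178, 159 and 239 in TH17, and 352, 393, 329 and 470.3 in Treg cells. It was at 188, 173, 175 and 166 CPM in TH1, 269, 259 and 249.6 in TH2, 181, 161, 179 and 149.5 in TH17, and 289, 227, 291 and 224 in Treg cells in Odc-/- libraries. The groups overlapped in TH1 and TH17 cells and did not in TH2 and Treg cells, with Odc-/- libraries above WT in TH2 and below WT in Treg cells. The log2 fold change was 0.59 ± 0.13 (adjusted p = 0.000528) in TH2 and -0.58 ± 0.12 (adjusted p = 0.000252) in Treg cells.

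Hsd17b7, a keto reductase of the late pathway, fell in Treg cells after loss of either gene. WT levels in the Odc table were 31.6, 39.0, 22.1 and 26.8 CPM in TH1, 58.2, 48.8, 51.1 and 50.3 in TH2, 53.6, 52.1, 49.3 and 49.1 in TH17, and 98.0, 93.5, 86.6 and 91.2 in Treg cells. In Odc-/- cells they were 27.9, 24.9, 23.2 and 23.4 CPM in TH1, 36.3, 32.1 and 32.0 in TH2, 38.5, 35.5, 26.3 and 25.1 in TH17, and 39.4, 39.0, 29.5 and 35.8 in Treg cells. TH2, TH17 and Treg libraries did not overlap between genotypes. The fall was 2.57-fold in Treg cells (log2 fold change -1.36 ± 0.13 SE, adjusted p = 5.08e-09), with -0.70 ± 0.14 (adjusted p = 0.000173) in TH17 and -0.64 ± 0.15 (adjusted p = 0.000567) in TH2 cells. TH1 cells gave -0.27 ± 0.14 (adjusted p = 0.103), which passed the test at -0.40 without WT replicate 3 and was -0.11 without WT replicate 2. WT controls for Dohh had 48.4, 49.5 and 43.6 CPM in TH1, 32.3, 29.0 and 32.1 in TH2, 35.0, 31.5 and 38.7 in TH17, and 45.2, 33.8 and 64.1 in Treg cells. The Dohh-/- libraries had 22.4, 15.1 and 52.9 CPM in TH1, 21.6, 17.7 and 30.7 in TH2, 24.8, 23.5 and 10.9 in TH17, and 21.3, 21.5 and 20.8 in Treg cells. Every Dohh-/- TH17 and Treg library was below its WT libraries. The fall in Dohh-/- Treg cells was 2.25-fold (log2 fold change -1.17 ± 0.34 SE, adjusted p = 0.00617) and of the same size, -1.20 (adjusted p = 0.0705), but no longer past the test with the single library that remained without the myeloid-rich ones. Without WT replicate 3 it was -0.96, below the 2-fold limit. The TH17 value, -0.82 ± 0.34 (adjusted p = 0.0471), lost the test with any of 5 libraries left out, Dohh-/- replicates 2 and 3 and WT replicates 1 to 3, with either other filter, with the 2 groups alone and with a replicate block, and it was -0.50 (adjusted p = 0.459) without the myeloid-rich libraries. In TH1 cells the log2 fold change, -0.64 ± 0.33 (adjusted p = 0.116), ran from -0.34 without Dohh-/- replicate 2 to -1.31 without replicate 3, the fit in which it passed the test.

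The other 13 genes of cholesterol synthesis fell in Odc-/- Treg cells, apart from Ebp. Nsdhl, a sterol dehydrogenase, went from 83.8, 107, 87.2 and 102 CPM in WT to 44.1, 29.9, 41.7 and 32.5 in Odc-/- Treg cells (log2 fold change -1.36 ± 0.13 SE, adjusted p = 4.75e-09). Mvd, the decarboxylase at the end of the mevalonate steps, went from 90.8, 131, 90.8 and 113 to 49.7, 33.7, 53.7 and 40.7 CPM (log2 fold change -1.26 ± 0.17 SE, adjusted p = 9.82e-07). Neither pair of groups overlapped. Tm7sf2, a sterol reductase that shares 12.08% of its exon length with Vps51, and Fdft1, the squalene synthase that commits the pathway to sterols and has 18.31% of its exon length antisense to Ctsb, were also called in these cells, at -1.22 and -1.19 on the log2 scale. Fdft1 passed the test in 7 of 8 comparisons, each time lower, but was -0.33 (adjusted p = 0.247) in Dohh-/- Treg cells without the myeloid-rich libraries, and its value in Dohh-/- TH17 cells was 0.02 ± 0.14 (adjusted p = 0.913). Mvk and Pmvk, the kinases of mevalonate and phosphomevalonate, fell in Odc-/- Treg cells, with log2 fold changes of -0.87 and -0.98, and Pmvk was called higher in Dohh-/- TH1 cells, at 88.5, 168 and 68.6 against 44.2, 44.7 and 57.4 CPM (log2 fold change 1.15 ± 0.25 SE, adjusted p = 0.000628), but by 0.69, below the 2-fold limit, without Dohh-/- replicate 2. Sqle, the squalene epoxidase, Msmo1, the methylsterol oxidase, Sc5d, a sterol desaturase, and Dhcr7, the last reductase, fell in Odc-/- Treg cells, at -0.75, -0.98, -0.58 and -0.83. Msmo1, Tm7sf2 and Dhcr7 rose in Dohh-/- TH17 cells by 0.85, 0.63 and 0.50, below the 2-fold limit, and Nsdhl and Sc5d in Dohh-/- TH2 cells by 0.79 and 0.60. Without the myeloid-rich libraries Nsdhl also passed the test in Dohh-/- TH17 cells, at 0.67 (adjusted p = 0.029) against 0.40 ± 0.24 (adjusted p = 0.174). Lss, the lanosterol synthase, fell in all 4 subsets of Odc-/- cells (-0.77 to -0.33) and in Dohh-/- TH1 cells and rose in Dohh-/- Treg cells (log2 fold change 0.64 ± 0.19 SE, adjusted p = 0.00675). Ebp, the sterol isomerase, rose in 6 of 8 comparisons, 3 in each table, by 0.33 to 0.83, and without the myeloid-rich libraries was 0.74 (adjusted p = 0.0626) in Dohh-/- TH17 and 0.66 (adjusted p = 0.0902) in Treg cells. Fdps, the farnesyl diphosphate synthase, fell in Odc-/- Treg cells (log2 fold change -0.87) and is uncertain, since it shares 26.71% of its exon length with another gene model and its mean WT level was 6.47 times higher in the Odc table than in the Dohh table.

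Of the 5 genes of the SREBP system, 3 fell in Odc-/- TH1, TH17 and Treg cells and 1, Scap, the SREBP escort, rose in all 4 subsets. In WT cells of the Odc table it was at 85.7, 78.1, 74.9 and 98.0 CPM in TH1, 76.6, 77.5, 73.6 and 86.0 in TH2, 80.04, 81.7, 79.4 and 102 in TH17, and 56.0, 60.8, 71.8 and 87.7 in Treg cells. In Odc-/- cells it was at 116, 135, 116 and 121 CPM in TH1, 136, 120.2 and 132 in TH2, 127, 152, 148 and 145 in TH17, and 144, 146, 141 and 151 in Treg cells. No Odc-/- library overlapped WT in any subset and WT Treg cells had the lowest mean level. The rise was 2.1-fold in Treg cells (log2 fold change 1.07 ± 0.11 SE, adjusted p = 1.26e-08) but 0.98 on the log2 scale, below the 2-fold limit, without WT replicate 1, and 0.54 ± 0.11 (adjusted p = 0.000222), 0.72 ± 0.12 (adjusted p = 1.55e-05) and 0.74 ± 0.11 (adjusted p = 1.24e-05) in TH1, TH2 and TH17 cells. WT levels for Dohh were 99.5, 111 and 78.5 CPM in TH1, 100.3, 84.6 and 75.2 in TH2, 100.4, 98.9 and 90.0 in TH17, and 105, 104 and 105 in Treg cells. The Dohh-/- libraries had 123, 95.6 and 74.7 CPM in TH1, 88.3, 87.5 and 83.4 in TH2, 103, 81.7 and 86.9 in TH17, and 125, 138 and 126 in Treg cells. Only the Treg groups did not overlap, and no comparison passed the test, at 0.31 ± 0.16 (adjusted p = 0.113) in Treg cells, which passed it with the 2 groups alone.

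Insig2, which retains SCAP in the endoplasmic reticulum, fell in every subset of Odc-/- cells and in Dohh-/- TH17 and Treg cells. Levels in WT cells of the Odc table were 37.3, 40.8, 40.9 and 38.8 CPM in TH1, 43.2, 48.0, 42.5 and 47.7 in TH2, 26.8, 32.7, 29.4 and 24.9 in TH17, and 46.5, 37.6, 46.1 and 30.4 in Treg cells. Levels in Odc-/- cells were 36.1, 21.4, 22.1 and 23.1 CPM in TH1, 23.7, 32.1 and 27.0 in TH2, 25.1, 22.0, 18.3 and 19.8 in TH17, and 19.2, 21.0, 19.5 and 22.7 in Treg cells. Groups overlapped in TH17 cells, where replicate 1 of the Odc-/- libraries lay within WT. The largest fall was in Treg cells (log2 fold change -0.96 ± 0.15 SE, adjusted p = 3.66e-06), followed by -0.71 ± 0.16 (adjusted p = 0.000371) in TH2, -0.62 ± 0.15 (adjusted p = 0.000758) in TH1 and -0.41 ± 0.15 (adjusted p = 0.0224) in TH17 cells, the last of which did not pass the test without Odc-/- replicate 3 or 4 or WT replicate 2. WT levels for Dohh were 19.5, 19.2 and 19.4 CPM in TH1, 21.6, 24.1 and 30.9 in TH2, 28.4, 26.7 and 33.3 in TH17, and 30.9, 28.0 and 26.8 in Treg cells. Dohh-/- levels were 16.97, 12.3 and 22.6 CPM in TH1, 21.8, 19.0 and 20.9 in TH2, 20.2, 16.9 and 14.8 in TH17, and 18.1, 14.4 and 19.4 in Treg cells. The TH17 and Treg groups did not overlap, with -0.77 ± 0.19 (adjusted p = 0.00253) and -0.72 ± 0.19 (adjusted p = 0.00355), and -0.54 (adjusted p = 0.155) and -0.69 (adjusted p = 0.0678) without the myeloid-rich libraries. Insig1, its paralog and itself an SREBP target, fell in Odc-/- TH1, TH17 and Treg cells (-0.57, -0.74 and -0.75) and in Dohh-/- Treg cells (-0.63). Srebf2, which encodes the SREBP that acts most on sterol genes, fell in Odc-/- TH1, TH17 and Treg cells (-0.29, -0.40 and -0.81) and in Dohh-/- TH2 and Treg cells (-0.60 and -0.53). Without the myeloid-rich libraries neither passed the test in Dohh-/- Treg cells, with Insig1 at -0.51 (adjusted p = 0.184) and Srebf2 at -0.42 (adjusted p = 0.214). Srebf1, which encodes the form that acts most on fatty acid genes, was the 1 member of 33 that passed the test in no comparison, with log2 fold changes from -0.32 to 0.01.

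Stard4, a soluble carrier of sterols between membranes, fell in all 4 subsets of Odc-/- cells and in none of Dohh-/- cells. WT cells of the Odc table had 262, 286, 249.8 and 214 CPM in TH1, 278, 256, 253 and 235 in TH2, 193, 200.4, 183 and 186 in TH17, and 322, 358, 296 and 320.0 in Treg cells. Odc-/- cells had 163, 104, 112 and 112 CPM in TH1, 133, 141 and 149 in TH2, 114, 77.6, 83.7 and 72.6 in TH17, and 119, 101, 127 and 100.4 in Treg cells. Every Odc-/- library was below every WT library of its subset. The fall was 2.9-fold in Treg cells (log2 fold change -1.54 ± 0.13 SE, adjusted p = 5.08e-10), 2.19-fold in TH17, 2.06-fold in TH1 and 1.81-fold in TH2 cells, with adjusted p-values of 3.3e-07, 8.63e-07 and 1.43e-05. In TH1 cells the log2 fold change was -0.98, below the 2-fold limit, without Odc-/- or WT replicate 2. WT cells of the Dohh table had 143, 144 and 141 CPM in TH1, 118, 121 and 152 in TH2, 80.3, 79.5 and 92.2 in TH17, and 139, 129 and 154 in Treg cells. Dohh-/- cells had 122, 103 and 146 CPM in TH1, 114, 104 and 119.7 in TH2, 112, 107 and 88.8 in TH17, and 145, 136 and 136 in Treg cells. The groups overlapped in all 4 subsets, and the log2 fold changes lay between -0.21 and 0.29, with adjusted p of 0.0933 or more. The TH17 value passed the test at 0.33 under DESeq2 and with the stricter filter, and at 0.40 without Dohh-/- replicate 3.

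Scd1, a desaturase of saturated fatty acids, fell in Odc-/- TH17 and Treg cells and rose in Dohh-/- TH2 and TH17 cells. In the Odc table its WT levels were 124, 138, 109.6 and 154 CPM in TH1, 102, 95.4, 94.5 and 137 in TH2, 126, 134, 136 and 147 in TH17, and 601, 592, 570.3 and 578 in Treg cells. Its Odc-/- levels were 196, 75.7, 101 and 91.0 CPM in TH1, 143, 162 and 139.5 in TH2, 100.5, 25.2, 63.1 and 40.5 in TH17, and 272, 105, 195 and 121 in Treg cells. WT Treg libraries stood far above the other WT libraries, the Odc-/- libraries were above WT in TH2 and below WT in TH17 and Treg cells, and of the Odc-/- libraries replicate 1 was the highest in TH1, TH17 and Treg cells. The fall was 3.38-fold in Treg (log2 fold change -1.76 ± 0.31 SE, adjusted p = 2.91e-05) and 2.37-fold in TH17 cells (log2 fold change -1.24 ± 0.31 SE, adjusted p = 0.00214), the latter just under 2-fold without Odc-/- replicate 2, while TH2 cells gave 0.47 ± 0.33 (adjusted p = 0.22), past the test with the 2 groups alone. WT controls for Dohh had 115, 120.4 and 97.3 CPM in TH1, 82.7, 79.4 and 68.7 in TH2, 75.8, 62.3 and 69.0 in TH17, and 311, 308 and 355 in Treg cells. Dohh-/- libraries had 174, 135 and 96.6 CPM in TH1, 138, 169 and 209 in TH2, 175, 151 and 49.6 in TH17, and 299, 304 and 247 in Treg cells. In TH2 cells all Dohh-/- libraries were above WT, and in Treg cells all were below WT without passing the test (TH2 log2 fold change 1.16 ± 0.29 SE, adjusted p = 0.003, and 0.99 without Dohh-/- replicate 3, below the 2-fold limit). In TH17 cells 2 were above and replicate 3 below WT, at 0.86 ± 0.29 (adjusted p = 0.0176), which did not pass the test without Dohh-/- replicate 1 or 2 or WT replicate 2 or with the 2 groups alone, and was 1.35 (adjusted p = 0.00113) without the myeloid-rich libraries.

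Scd2, another stearoyl-CoA desaturase and the member with the highest level, fell in Odc-/- TH1, TH17 and Treg cells. WT libraries of the Odc table had 2811, 2959.8, 2385 and 2307 CPM in TH1, 2305, 2043, 2182 and 1966 in TH2, 1842, 1792, 1825 and 1775 in TH17, and 2872, 2473, 2770.5 and 2421 in Treg cells. Odc-/- libraries had 1815, 676, 993 and 833 CPM in TH1, 1245, 1539.6 and 1433 in TH2, 1343, 417, 687 and 585 in TH17, and 1292, 425, 917 and 592 in Treg cells. No Odc-/- library overlapped WT, and replicate 1 stood above the other Odc-/- libraries in TH1, TH17 and Treg cells. The log2 fold change was -1.71 ± 0.30 (adjusted p = 3.22e-05) in Treg, -1.28 ± 0.30 (adjusted p = 0.000784) in TH1 and -1.25 ± 0.30 (adjusted p = 0.0014) in TH17 cells, and -0.60 ± 0.32 (adjusted p = 0.112) in TH2 cells passed the test only with the 2 groups alone (-0.61). WT libraries of the Dohh table had 1818, 1784 and 1395 CPM in TH1, 1553, 1341 and 1435 in TH2, 1092, 996 and 1022 in TH17, and 1342, 1172 and 1376 in Treg cells. Dohh-/- libraries had 1137, 831 and 1012 CPM in TH1, 881, 1059 and 1291 in TH2, 927, 909.7 and 461 in TH17, and 1179.6, 1184 and 1110.2 in Treg cells. TH1, TH2 and TH17 groups did not overlap, and only TH1 cells passed the test, at -0.75 ± 0.21 (adjusted p = 0.0059), which it lost with only the 2 groups compared (-0.73), while TH17 cells passed it without Dohh-/- replicate 1 (-0.60).

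Fads2, the first desaturase of polyunsaturated fatty acid synthesis, fell in Odc-/- and rose in Dohh-/- TH17 and Treg cells. In WT cells of the Odc table it was at 76.6, 67.4, 57.8 and 66.0 CPM in TH1, 48.7, 49.0, 45.8 and 57.1 in TH2, 60.2, 63.5, 62.0 and 66.9 in TH17, and 82.5, 90.8, 81.9 and 96.3 in Treg cells. In Odc-/- libraries it was at 56.5, 36.6, 52.1 and 43.5 CPM in TH1, 44.3, 55.2 and 56.2 in TH2, 44.7, 17.1, 33.4 and 21.6 in TH17, and 56.4, 21.4, 37.5 and 23.1 in Treg cells. Odc-/- libraries were below WT in TH1, TH17 and Treg cells, with replicate 1 again the highest of the 4. The fall was 2.54-fold in Treg (log2 fold change -1.35 ± 0.23 SE, adjusted p = 2.37e-05) and 2.17-fold in TH17 cells (log2 fold change -1.11 ± 0.24 SE, adjusted p = 0.000478), the latter -0.93 without Odc-/- replicate 2 and -0.99 without replicate 4, below the 2-fold limit, and TH1 cells gave -0.51 ± 0.23 (adjusted p = 0.0635), which passed under 6 alternatives, DESeq2 and the fit without Odc-/- TH1 replicate 1 among them. WT cells of the Dohh table had 46.4, 48.5 and 45.3 CPM in TH1, 37.0, 33.8 and 29.8 in TH2, 22.0, 19.2 and 17.4 in TH17, and 30.4, 39.3 and 34.7 in Treg cells. Dohh-/- cells had 107, 71.6 and 69.2 CPM in TH1, 50.05, 62.6 and 82.9 in TH2, 74.4, 53.4 and 16.6 in TH17, and 113, 105 and 74.1 in Treg cells. Every Dohh-/- library was above WT except replicate 3 in TH17 cells. The rise was 2.8-fold in Treg (log2 fold change 1.49 ± 0.32 SE, adjusted p = 0.000676) and 2.47-fold in TH17 cells (log2 fold change 1.30 ± 0.33 SE, adjusted p = 0.00249), and without the myeloid-rich libraries it was 1.67 (adjusted p = 9.92e-05) and 1.93 (adjusted p = 4.66e-05). Without Dohh-/- TH17 replicate 1 the TH17 value was 0.85 and below the 2-fold limit. The rises in TH1 and TH2 cells, 0.82 ± 0.32 (adjusted p = 0.0374) and 0.96 ± 0.32 (adjusted p = 0.02), did not pass the test in TH1 cells without Dohh-/- replicate 1 or any 1 WT library, in TH2 cells without Dohh-/- replicate 3 or WT replicate 2 or 3, and in either with no filter.

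Among the other fatty acid genes, Acaca, the acetyl-CoA carboxylase that makes malonyl-CoA for synthesis, rose in 3 subsets of each table. It went from 36.8, 36.1, 33.1 and 44.5 CPM in WT to 83.5, 76.8 and 90.3 in Odc-/- TH2 cells (log2 fold change 1.15 ± 0.16 SE, adjusted p = 1.97e-06) and from 37.8, 32.6 and 26.9 to 58.4, 78.4 and 93.6 in Dohh-/- TH2 cells (log2 fold change 1.24 ± 0.22 SE, adjusted p = 0.000121). Both sets of libraries were separate from WT. Without the myeloid-rich libraries the rises in Dohh-/- TH17 and Treg cells did not pass the test, at 0.85 (adjusted p = 0.0516) and 0.71 (adjusted p = 0.0954). Fasn, the fatty acid synthase, rose in Odc-/- TH1 and TH2 cells by 0.81 and 0.96 and passed the test in no Dohh-/- comparison. Elovl6, an elongase of saturated fatty acids, fell in all 4 subsets of Odc-/- cells, with 75.8, 47.0, 51.8 and 51.3 against 165, 173, 139 and 132 CPM in Treg cells (log2 fold change -1.43 ± 0.17 SE, adjusted p = 7.61e-08) and a log2 fold change of -1.24 in TH17 cells. It also fell in Dohh-/- TH2 cells (-0.82). Fads1, the desaturase that acts after Fads2, rose in Odc-/- TH2 and Dohh-/- TH2, TH17 and Treg cells (0.32 to 0.82) and fell in Odc-/- Treg cells (-0.47). Without the myeloid-rich libraries it was 0.53 (adjusted p = 0.218) in Dohh-/- TH17 and 0.60 (adjusted p = 0.145) in Treg cells. Acacb, the carboxylase whose malonyl-CoA restrains fatty acid oxidation at mitochondria, had only 4 to 59 counts per library and was called in Dohh-/- Treg cells, at 1.77, 2.12 and 0.825 against 4.44, 3.89 and 4.26 CPM (log2 fold change -1.41 ± 0.42 SE, adjusted p = 0.00701), a call not kept without the myeloid-rich libraries, at -1.28 (adjusted p = 0.0922).

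The sterol exporters Abca1 and Abcg1 are also made by macrophages, which the negative selection for CD4+ T cells is meant to remove, and the summed myeloid markers are given beside them. Abca1, which loads cholesterol onto lipid-poor apolipoproteins, was at 21.5, 29.7, 12.8 and 31.4 CPM in TH1, 11.4, 11.5, 8.55 and 11.5 in TH2, 25.3, 19.0, 23.0 and 15.3 in TH17, and 13.5, 10.5, 16.6 and 17.4 in Treg cells in WT libraries of the Odc table. In Odc-/- libraries it was at 14.9, 8.86, 18.01 and 10.4 CPM in TH1, 1.72, 4.59 and 2.97 in TH2, 14.6, 6.97, 9.32 and 7.42 in TH17, and 26.6, 21.0, 17.99 and 16.7 in Treg cells. It was below WT without overlap in TH2 and TH17 cells, and in Treg cells the libraries overlapped, with the higher mean in Odc-/- cells, whose summed myeloid markers were 175 to 889 against 23.4 to 50.6 CPM in WT. The fall was 3.44-fold in TH2 (log2 fold change -1.78 ± 0.35 SE, adjusted p = 0.000121) and 2.15-fold in TH17 cells (log2 fold change -1.11 ± 0.28 SE, adjusted p = 0.00214), where it reached no more than 2-fold without Odc-/- replicate 2 (log2 fold change -0.98) or 4 or WT replicate 1, with -0.87 ± 0.27 (adjusted p = 0.00808) in TH1 and 0.50 ± 0.27 (adjusted p = 0.105) in Treg cells. WT cells of the Dohh table had 9.77, 10.3 and 10.1 CPM in TH1, 13.2, 12.4 and 15.1 in TH2, 25.4, 25.3 and 26.1 in TH17, and 32.6, 23.1 and 31.1 in Treg cells. Levels in Dohh-/- libraries were 6.64, 4.42 and 5.29 CPM in TH1, 3.04, 4.48 and 1.91 in TH2, 7.41, 25.2 and 12.5 in TH17, and 1.66, 13.9 and 18.9 in Treg cells. No Dohh-/- library overlapped WT, but in TH17 and Treg cells the lowest was replicate 1, the one with the fewest myeloid marker counts (609.6 and 422 CPM against 4508 or more in replicates 2 and 3). The fall in Dohh-/- TH2 cells was 4.29-fold (log2 fold change -2.10 ± 0.53 SE, adjusted p = 0.00323), with summed myeloid markers of 49.4 to 806 against 22.8 to 31.8 CPM in WT. In Treg cells it was -1.33 ± 0.49 (adjusted p = 0.026), -4.15 (adjusted p = 2.25e-06) without the myeloid-rich libraries, and not past the test without Dohh-/- replicate 1 (log2 fold change -0.82) or WT replicate 1, with no filter or with only the 2 groups compared. TH17 cells gave -0.76 ± 0.48 (adjusted p = 0.194) with all libraries, passed the test at -1.38 without Dohh-/- replicate 2 alone and was -1.78 (adjusted p = 0.00137) without the myeloid-rich ones, and in TH1 cells -0.87 ± 0.51 (adjusted p = 0.164) passed at -0.87 (adjusted p = 0.00573) in that fit, in which all TH1 libraries were kept, and at -0.86 with only the 2 groups compared.

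Abcg1, which exports cholesterol to lipoprotein particles, was the 1 member of 33 lower at an adjusted p-value below 0.05 in all 8 comparisons. The summed myeloid markers had the higher mean in the deficient cells in each of them, from 28.3 ± 11.5 against 20.9 ± 3.32 CPM in Odc-/- TH2 to 7129 ± 5820.0 against 43.7 ± 1.14 in Dohh-/- TH17 cells (mean ± SD). WT levels in the Odc table were 28.3, 21.9, 26.0 and 17.6 CPM in TH1, 19.5, 13.6, 16.7 and 9.18 in TH2, 46.9, 41.8, 43.2 and 44.5 in TH17, and 59.0, 53.5, 51.7 and 50.9 in Treg cells. Levels in Odc-/- cells were 21.1, 11.9, 15.3 and 13.6 CPM in TH1, 6.76, 11.1 and 7.75 in TH2, 47.2, 23.4, 25.5 and 26.4 in TH17, and 33.03, 28.4, 23.9 and 31.3 in Treg cells. Only the Treg groups did not overlap, and Odc-/- TH17 replicate 1 was above every WT library. The log2 fold changes were -0.60 ± 0.22 (adjusted p = 0.0193) in TH1, -0.79 ± 0.25 (adjusted p = 0.00832) in TH2, -0.52 ± 0.20 (adjusted p = 0.0344) in TH17 and -0.88 ± 0.20 (adjusted p = 0.000519) in Treg cells. Of these, TH1 lost the test without Odc-/- replicate 2 or 4 or WT replicate 1, TH2 without Odc-/- replicate 2, and TH17 without Odc-/- replicate 2, 3 or 4 or WT replicate 1, 3 or 4 or with no filter. WT levels in the Dohh table were 30.6, 25.7 and 20.0 CPM in TH1, 25.4, 25.5 and 21.2 in TH2, 70.1, 74.0 and 74.8 in TH17, and 72.9, 68.6 and 81.7 in Treg cells. Levels in Dohh-/- cells were 9.20, 7.57 and 4.63 CPM in TH1, 9.55, 18.3 and 12.7 in TH2, 25.7, 61.8 and 35.8 in TH17, and 18.7, 38.3 and 26.1 in Treg cells. No Dohh-/- library overlapped WT in any subset. The fall was 3.57-fold in TH1 (log2 fold change -1.83 ± 0.32 SE, adjusted p = 8.08e-05) and 2.69-fold in Treg cells (log2 fold change -1.43 ± 0.29 SE, adjusted p = 0.000386), the latter -2.03 (adjusted p = 0.000458) without the myeloid-rich libraries. In TH2 and TH17 cells it was -0.83 ± 0.30 (adjusted p = 0.0296) and -0.82 ± 0.29 (adjusted p = 0.021), and both lost the test without Dohh-/- replicate 1 or 3, and TH2 also without WT replicate 1 or 2. The TH17 value also lost it with only the 2 groups compared, and was -1.5 (adjusted p = 0.00432) without the myeloid-rich libraries.

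**Figure D3:**
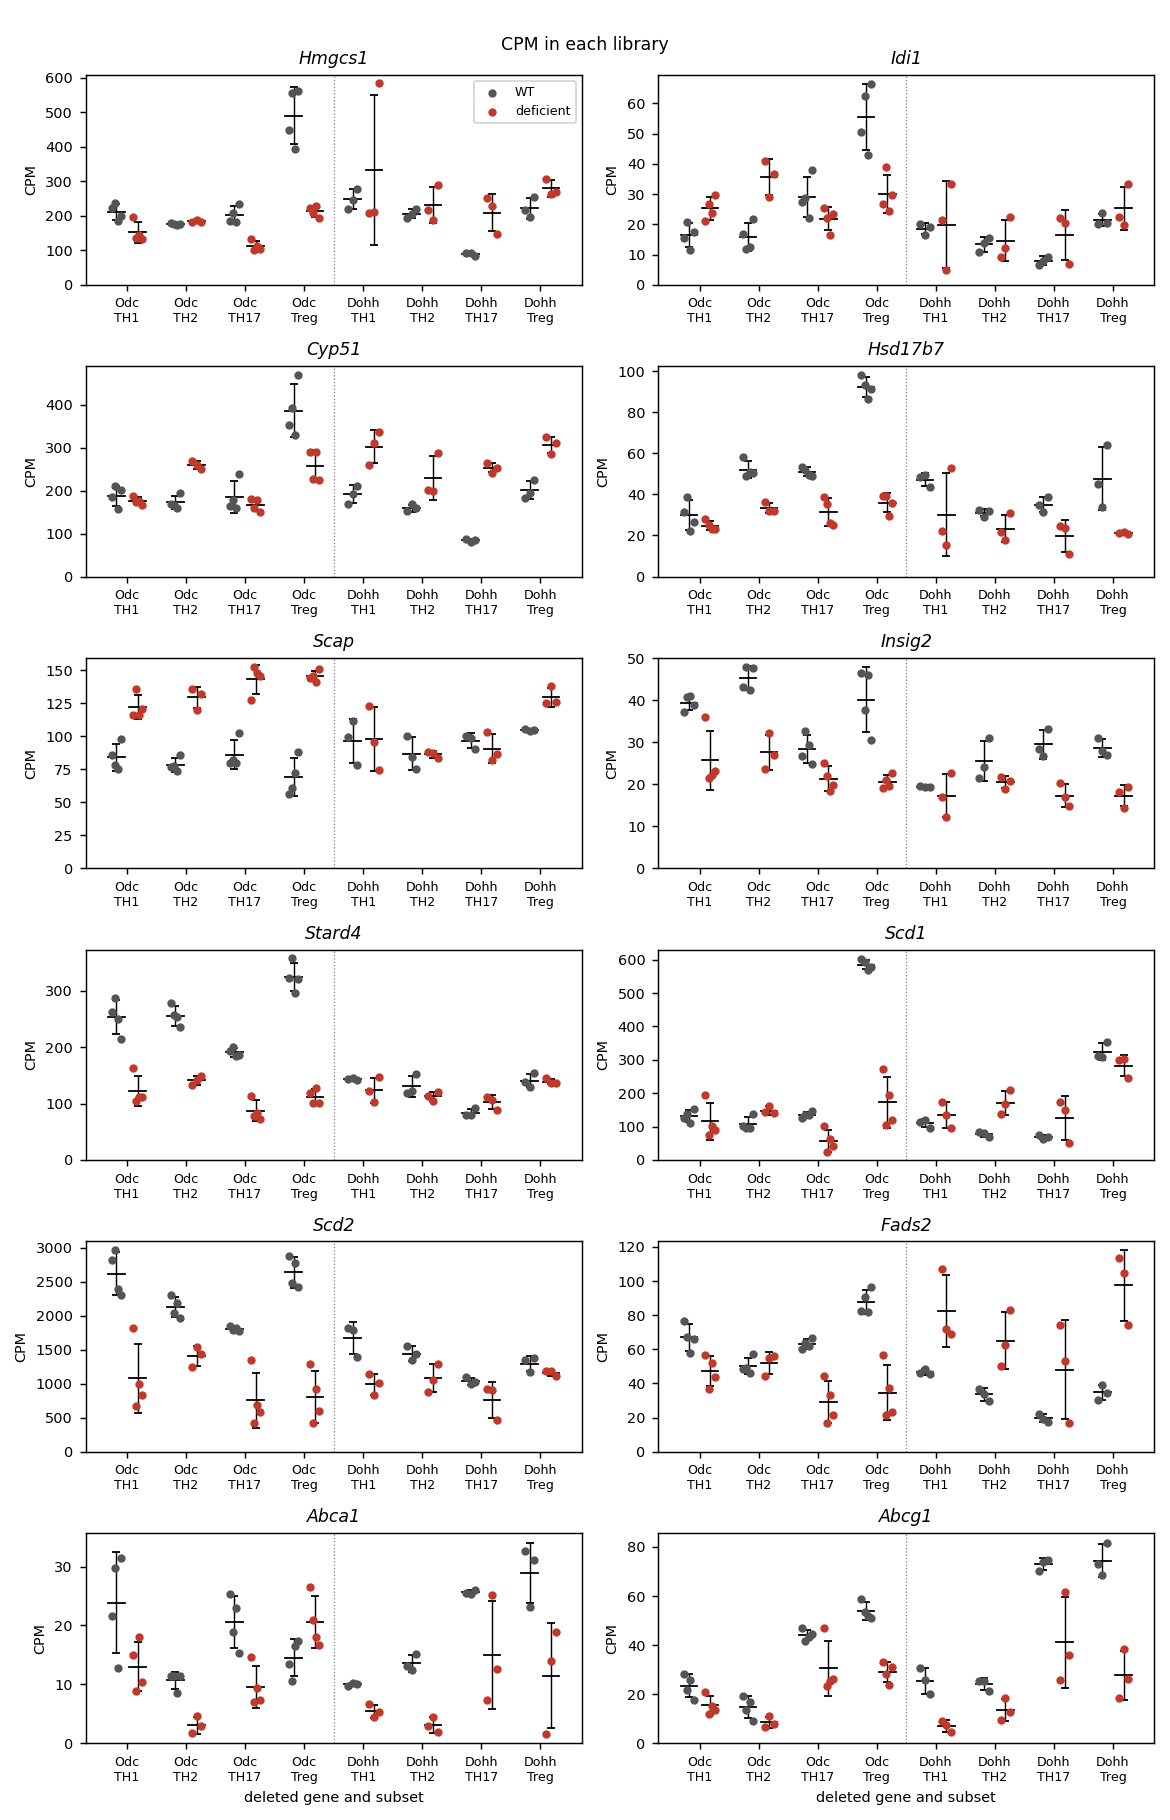
CPM of 12 genes in each library, by table and subset, with WT in grey and deficient cells in red; lines and bars are the mean and SD, and each axis starts at 0. Stard4 separates the genotypes in all 4 Odc subsets and in no Dohh subset, and Cyp51 separates them in all 4 Dohh subsets.

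Whether the effect of a deletion differed between subsets was tested by an interaction term for genotype and subset. For Odc loss 25 of 33 members passed at an adjusted p-value below 0.05, beside 34.8% of all genes, and for Dohh loss 3 did (Lss, Cyp51 and Msmo1), beside 17.9%. The log2 range of the Odc effect over the subsets was 2.29 (adjusted p = 0.000868) for Abca1, 2.22 (adjusted p = 0.00113) for Scd1 and 2.07 (adjusted p = 1.24e-05) for Idi1. For Hmgcs1 it was 1.27 (adjusted p = 2.81e-05) and for Nsdhl 1.44 (adjusted p = 2.67e-05), with Treg cells at the low end of both. Members with no such difference at this threshold included Abcg1 at 0.36 (adjusted p = 0.685), Insig2 at 0.55 (adjusted p = 0.166) and Scd2 at 1.11 (adjusted p = 0.191). For Dohh loss the range was 1.06 (adjusted p = 0.00229) for Cyp51, 1.30 (adjusted p = 0.01) for Lss and 1.01 (adjusted p = 0.00697) for Msmo1. These counts rested on single replicate numbers, with 7 members in the Odc table without replicate 2 and 16 without replicate 3, and in the Dohh table none without replicate 1 or 2 and 9 without replicate 3. With the myeloid-rich libraries left out, 5 members passed in the Dohh table.

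The effects of the 2 deletions were compared in 1 fit of both tables, as the difference of their log2 fold changes in each subset. In TH17 cells the Odc effect was lower than the Dohh effect by more than 1 at an adjusted p-value below 0.05 for 12 of 33 members and higher for 0, beside 7.16% and 5.58% of all genes. In Treg cells it was lower for 13 and higher for 1 (Abca1), beside 7.27% and 8.71%. In TH1 cells it was lower for 2 (Pmvk and Fads2) and higher for 1 (Abcg1), beside 5.19% and 4.77%, near the background, and in TH2 cells lower for 0 and higher for 1 (Fasn), beside 5.29% and 3.8%. Fads2 differed by -2.87 ± 0.41 (adjusted p = 5.75e-07) in Treg and -2.47 ± 0.41 (adjusted p = 2.22e-05) in TH17 cells. Hmgcs1 differed by -2.13 ± 0.29 (adjusted p = 7.35e-07) in TH17 and -1.58 ± 0.29 (adjusted p = 4.87e-05) in Treg cells, and Cyp51 by -1.78 ± 0.19 (adjusted p = 3.29e-09) and -1.23 ± 0.19 (adjusted p = 2.27e-06). Stard4 differed by -1.56 ± 0.20 (adjusted p = 4.85e-08) and Elovl6 by -1.67 ± 0.29 (adjusted p = 1.92e-05) in Treg cells. Abca1 in Treg cells differed the other way, by 1.80 ± 0.53 (adjusted p = 0.00949). The differences in TH17 and Treg cells include the myeloid-rich Dohh-/- libraries. Without those libraries the Dohh effect on Abca1 in Treg cells was -4.15, against -1.33 with all libraries. The Dohh effect on Fads2 in TH17 cells was then 1.93, against 1.30. Hsd17b7 fell in both deletions, and its difference was -0.23 ± 0.33 (adjusted p = 0.677) in Treg cells. In TH1 cells 6 members were called without Odc replicate 1, and in TH2 cells none were called without Odc replicate 2 or Dohh replicate 1, and 2 without Dohh replicate 3. The mean WT level was higher in the Odc than in the Dohh table by 6.47 times for Fdps, 2.65 times for Elovl6 and 2.05 times for Stard4, and within 2-fold for the other 30 members, and whether the tables were counted alike is not given in the sources used here. In these differences the deletion cannot be told apart from the table, since each deletion was compared only with the WT libraries of its own table.

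**Figure D4:**
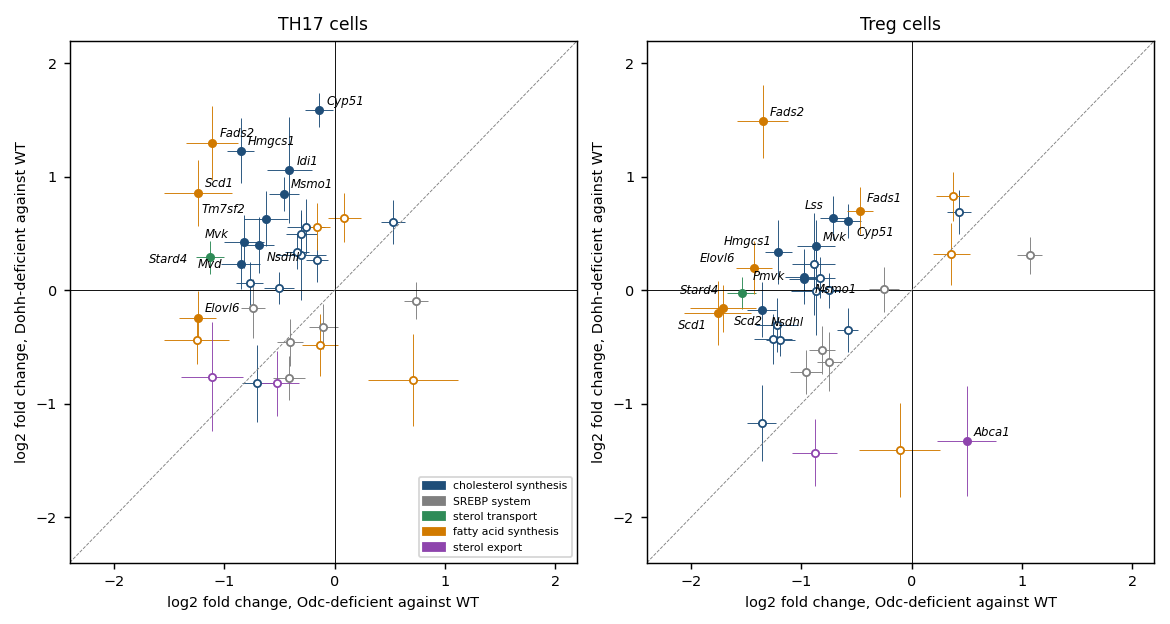
Log2 fold change in Dohh-/- (vertical) against that in Odc-/- cells (horizontal), each against its own WT, for the 33 genes in TH17 (left) and Treg cells (right), colored by role; bars are SE and the dashed line marks equal effects. Filled and named points differ by more than 1 at an adjusted p-value below 0.05, 12 in TH17 and 14 in Treg cells, and all but Abca1 lie above the line.

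A further 34 genes of these pathways, among them suppliers of acetyl-CoA, fatty acid ligases and elongases, LXR receptors, storage enzymes and the proteases that cut SREBP, were counted beside the members. Of these, 32 were tested for Odc loss, and 12 fell and 7 rose in TH1 cells (all genes 27.7% and 29.1%), 11 fell and 9 rose in TH2 cells (all genes 29.3% and 29.9%), 15 fell and 7 rose in TH17 cells (all genes 22.2% and 25.6%), and 11 fell and 6 rose in Treg cells (all genes 26.9% and 32.9%). The falls in Odc-/- Treg cells were thus nearer to the background than those of the members, and the median log2 fold change was -0.11, against -0.87 for the members. All 34 were tested for Dohh loss, and 8 fell and 7 rose in TH1 cells (all genes 24.1% and 25.9%), 5 fell and 7 rose in TH2 cells (all genes 21.5% and 23.8%), 9 fell and 13 rose in TH17 cells (all genes 24.9% and 27.0%), and 10 fell and 10 rose in Treg cells (all genes 25.0% and 28.4%).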

How the data were processed

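Poly(A) RNA of the T cell cultures was sequenced from stranded libraries (TruSeq). The authors deposited 2 tables of raw counts per gene, which hold whole-number read counts with no normalization. Their processing notes name STAR, featureCounts, DESeq2, deepTools and the mm10 build, and the annotation and strand setting are not given in the sources used here. All value columns were mapped to labelled samples, and Odc-/- TH2 replicate 1 was not analysed here. Labels number the replicates without saying that each is another mouse, so p-values measure the spread between these samples, which may be technical.

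Genes were filtered with filterByExpr, scaled by TMM and tested with edgeR 4.0.16 (quasi-likelihood, R 4.3.3), with 8 groups per table sharing 1 estimate of the spread and Benjamini-Hochberg adjustment over 13839 genes (Odc), 13897 (Dohh) and 14850 (both tables in 1 fit). WT subsets, the interaction of genotype and subset, and the difference of the deletions were contrasts of the same fits. The WT subset and interaction tests are joint tests, given with the range over subsets. A change was called above 2-fold at an adjusted p-value below 0.05. Total counts of 5905374 to 12576933 limit precision through counting error, and CPM intervals or floors cover counting error only.

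The members and lists were chosen with earlier results of these data known. All 33 members are named. Values in every library are given for those with the most calls, up to 4 of cholesterol synthesis, 3 of fatty acid synthesis and 2 of each other role, with ties broken by mean absolute log2 fold change, and a few values of other members are given beside their call. The lists of markers reported cover T cell identity, TH1, TH2 and Treg cells, myeloid cells, B cells, basophils and mast cells, CD8 T and NK cells, erythroid cells and proliferation. Markers of TH17 cells are not reported here.

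Replicate numbers of WT and deficient libraries of a subset did not pair (correlation of deviations over 0.1 in 7 of 15 pairs of the Odc table and 1 of 12 of the Dohh table). Across WT subsets of the Odc table they did (24 of 24 pairs, lowest 0.206), where a block left the count at 11. Over 0.1 were also 20 of 21 pairs across Odc-/- subsets, 15 of 18 across WT and 13 of 18 across Dohh-/- subsets of the Dohh table, where a block left the WT count at 14. Counts were simulated from mean levels over all WT libraries of the Odc table, with changes placed in the deficient Treg libraries. The test recovered 97 of 100 genes changed 2-fold and 100 of 100 changed 4-fold, with 10 false calls among 12931 genes. For the Dohh table these were 88, 100 and 8 among 12768. The simulation gave every gene the same spread, had no shared replicate effect and changed only genes above a set level. These rates therefore do not describe groups that spread more widely, as several deficient groups did. Alternatives were RLE size factors, DESeq2 1.42.0, no filter, a stricter filter (mean count of 50), fits of the compared groups alone, a replicate block, adjusted p alone and each library left out. Leaving out the myeloid-rich libraries (above 2000 CPM of myeloid markers) and counting members by direction were chosen after seeing the data. Summaries and figures used Python 3.11.15, pandas 2.3.3 and matplotlib 3.10.9. Promoters come from RefSeq (GRCm38.p6).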

Additional observations from a re-analysis of the deposited data

Results flagged for a closer look

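Single libraries stood far from the others of their group for 7 values. In Odc-/- TH1 cells replicate 1 was the highest of 4 for Hmgcs1 (196 CPM), Stard4 (163 CPM) and Insig2 (36.1 CPM), each nearer to WT than the other 3. Abcg1 was highest in Odc-/- TH17 replicate 1 (47.2 CPM). In WT libraries of the Odc table Scap was highest in TH17 replicate 4 (102 CPM), Scd1 highest in TH2 replicate 4 (137 CPM) and Abca1 lowest in TH2 replicate 3 (8.55 CPM). At most 96 groups of 4 libraries were looked at, and chance marks about 1 in 20 groups in this way. Groups of 3 were not tested.

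By the interaction test the effect of Odc loss differed between subsets for 25 of 33 members, beside 34.8% of all genes. Among these were 9 of the genes given in every library, which were chosen by role for having the most calls in these data. The log2 range of the effect over the subsets was 2.29 for Abca1, 2.22 for Scd1, 2.07 for Idi1, 1.39 for Fads2, 1.27 for Hmgcs1, 1.17 for Cyp51, 1.09 for Hsd17b7, 0.68 for Stard4 and 0.54 for Scap. For Dohh loss 3 of 33 members passed, beside 17.9% of all genes. Of the genes given in every library, only Cyp51 did, with a range of 1.06.

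In the test of the difference, some Odc effects were lower than the Dohh effects by more than 1 on the log2 scale. This held for 2 of 33 members in TH1, 0 in TH2, 12 in TH17 and 13 in Treg cells. The shares of all genes were 5.19%, 5.29%, 7.16% and 7.27%. The Odc effect was higher for 1, 1, 0 and 1, beside 4.77%, 3.8%, 5.58% and 8.71%. Of these cases 15 were among the genes given in every library, which were chosen by role for having the most calls in these data. In TH1 cells the difference, Odc minus Dohh, was -1.35 for Fads2 and 1.21 for Abcg1. In TH17 cells it was -2.47 for Fads2, -2.15 for Scd1, -2.13 for Hmgcs1, -1.78 for Cyp51, -1.53 for Idi1 and -1.47 for Stard4. In Treg cells it was -2.87 for Fads2, -1.60 for Scd1, -1.58 for Hmgcs1, -1.58 for Scd2, -1.56 for Stard4, -1.23 for Cyp51 and 1.80 for Abca1. The TH17 and Treg values include the myeloid-rich Dohh-/- libraries. Without those libraries the Dohh effect on Abca1 in Treg cells was -4.15, against -1.33 with all libraries.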

How the results depend on the processing

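No log2 fold change of a member past the test changed sign under any alternative run. Of 36 calls, 3 lost the adjusted p-value of 0.05, all in Dohh-/- Treg cells: Abca1 with no filter, with only the 2 groups compared or without Dohh-/- or WT replicate 1, and Acacb and Hsd17b7 without the myeloid-rich libraries. With a single library left out, 10 calls, 5 in each table, reached no more than 2-fold: Stard4 in Odc-/- TH1, Abca1, Fads2 and Scd1 in Odc-/- TH17, Scap in Odc-/- Treg, Pmvk in Dohh-/- TH1, Scd1 in TH2, Fads2 in TH17 and Abca1 and Hsd17b7 in Treg cells. Of 135 results past the test 46 lost it under some alternative, and of 129 others 41 gained it. With adjusted p alone, the members counted were 22, 15, 22 and 29 in Odc-/- and 8, 12, 13 and 14 in Dohh-/- TH1, TH2, TH17 and Treg cells, and 10, 3 and 19 for the difference of the deletions in TH1, TH2 and TH17 cells. With only the 2 groups compared, 2 fell in Dohh-/- TH1, 11 rose in TH2 and 1 fell in TH17 cells. With no filter, 5 fell in Dohh-/- Treg cells. Without the myeloid-rich libraries, 6 were called in Dohh-/- TH17 and 3 in Treg cells, 3 rose and 2 fell in Treg cells, and 5 passed the interaction test. With a replicate block the difference of the deletions was called for 0 members in TH2 cells (Fasn lost its call), 12 in TH17 and 15 in Treg cells, members called were 2, 3, 6 and 12 in Odc-/- and 2, 4, 4 and 5 in Dohh-/- cells, and no other count moved by over 1.5 times. Replicate numbers shared by WT and deficient libraries otherwise name the samples only. With single libraries left out, members called were 1 to 3, 3 to 5, 3 to 7 and 11 to 15 in Odc-/- TH1, TH2, TH17 and Treg cells and 2 to 4, 3 to 4, 3 to 5 and 4 to 5 in Dohh-/- cells. Members that rose were 4 to 5, 5 to 6, 2 to 3 and 2 to 4 in Odc-/- and 3 to 8, 3 to 7, 5 to 14 and 4 to 6 in Dohh-/- cells, and members that fell 13 to 19, 5 to 9, 17 to 20 and 26 to 27, and 3 to 7, 3 to 5, 1 to 6 and 6 to 8. With a replicate number left out, the interaction was past the test for 7 to 25 members in the Odc and 0 to 9 in the Dohh table, and the difference of the deletions was called for 2 to 6, 0 to 2, 9 to 15 and 10 to 18. The cause of these moves was not tested. Where 1 library remained in a group, it is assumed to vary like the other groups. Depth limits Acacb most, with as few as 4 counts in a library.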
